A study of Mus musculus and synthetic construct with 9 samples.

Results

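The 13413 sequences described here are the members of a massively parallel reporter assay (MPRA) library that could be compared between thapsigargin (Tg) and its solvent, out of 13628 sequences in the count tables. They were kept when their plasmid counts, summed over 2 sequencing runs, averaged 10 or more over 5 plasmid libraries, and the other 215 were left out. Each is 200 bp of human sequence around a SNP, with the reference or the alternate allele, placed upstream of a minimal promoter that drives GFP, and each is read through its own barcodes in the GFP mRNA. MIN6 cells, a mouse insulinoma line that keeps many traits of β cells, were transfected with the second plasmid batch, and 6 h later the medium was changed to one with 250 nM Tg in 0.025% DMSO or with 0.025% DMSO alone. Cells were harvested 30 h after transfection, so exposure lasted 24 h, and each group holds 5 RNA libraries from 5 transfection days. The sequences were human, the cells murine and the reporter a plasmid with 1 promoter. A single dose and a single time were used. The tables hold barcodes and no genes of the cells, so neither the β cell markers nor the stress response genes of these cultures were checked here.

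The endoplasmic reticulum (ER) folds secreted proteins such as insulin and needs a high calcium concentration to do so. Tg blocks the SERCA pumps that carry calcium into the ER, unfolded proteins accumulate, and the unfolded protein response slows translation and activates transcription factors such as ATF4, CHOP, XBP1 and ATF6. In an MPRA, activity is the amount of a sequence's barcodes in mRNA relative to the plasmid library, here the log2 RNA/plasmid ratio, in which 0 means as much RNA as plasmid predicts.

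The short windows below show sequences on which the results turn, with the SNP base in capitals, from the plus strand of hg19. The first 5 were probes for binding assays in the study. The windows of rs10842991, rs11075992 and rs12905951 come from its motif tables and stand for a pair that fell, a pair in which 1 allele rose and a strongly active pair that rose. They are parts of the tested 200 bp.
rs17748864 reference, chr3:179649501-179649521: tacagcacagCccaattaact
rs17748864 alternate: tacagcacagTccaattaact
rs4630391 reference, chr13:26777814-26777834: gcaggctgggCgcagtggctc
rs4630391 alternate: gcaggctgggTgcagtggctc
rs113350503 alternate, chr15:71111427-71111447: gtgaaaccccGtctctactaa
rs10842991 reference, chr12:27962089-27962118: tattattatcttcaCggactatttcacagc
rs11075992 reference, chr16:53820055-53820078: tcagaggcttgTgtgagaaagttg
rs12905951 reference, chr15:77649418-77649444: tgacaacgtaagaGgacccactctcta
The letters around rs4630391 and rs113350503 are those of Alu elements, a family of repeats found all over primate genomes.

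The DMSO libraries held 28896082 to 33325429 counts, the Tg libraries 29968043 to 44899256 and the plasmid libraries 23009482 to 36129587. The 10 sequences with most counts took 20.2 to 22.8% of a DMSO library, 23.4 to 25.6% of a Tg library and 0.593 to 0.598% of a plasmid library. Libraries were therefore scaled by TMM, which sets the bulk of sequences equal. On this scale the median log2 fold change over all 13413 sequences was 0.01, and by total counts only it was -0.08. Values are relative within a library, and in bulk RNA fewer transfected cells and less RNA per cell cannot be told apart.

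Tg moved more sequences down than up. By the edgeR test at an FDR of 1%, 274 sequences rose (2.04% of those tested) and 559 fell (4.17%), so that 6.21% changed and 12580 did not pass. Most changes were modest in size. The rises had log2 fold changes of 0.19 to 1.68 with a median of 0.33, and the falls of -1.39 to -0.19 with a median of -0.41. Only 4 of the rises and 8 of the falls reached 1 on the log2 scale, and 227 and 359 stayed under 0.5. The Tg ratios all exceeded the DMSO ratios for 214 of the 274 and were all smaller for 489 of the 559. Over all sequences tested these patterns were seen for 2.66% and 5.22%. Rises made up 32.9% of the calls, and 12.5% (145 higher, 1016 lower) when libraries were scaled by total counts only. None of the 833 sequences was called in the opposite direction under any alternative run, but calls were lost. By total counts only, 145 of the 274 rises and all 559 falls kept their call. The reads carry no molecular identifiers.

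The direction of change went with how active a sequence was in DMSO. Calls at moderate activity were mostly falls, and calls at the strongest activity were rises. Of the 652 sequences with a mean DMSO ratio of 0.5 to 1, 256 fell (39.3%), 54 rose (8.28%) and 342 were not called, with a median log2 fold change of -0.24. Of the 218 with a ratio of 1 to 2, 146 fell (67.0%) and 33 rose (15.1%), with a median of -0.54. The balance turned above that level. Of the 65 sequences between 2 and 4, 29 rose and 18 fell. Of the 68 at 4 and over, 46 rose (67.7%) and 0 fell, and all 68 had a positive log2 fold change, with a median of 0.30. The largest class, 12194 sequences between -0.5 and 0.5, had 112 rises (0.919%) and 139 falls (1.14%), so its share of either was below that of all sequences. Of 216 sequences under -0.5, 0 passed the edgeR test in either direction, and at an unadjusted p under 0.05 14 were higher and 1 was lower. Their median plasmid count was 43.9, against 2168 in the class between -0.5 and 0.5, and their median standard error was 0.67 on the log2 scale, against 0.08.

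These counts are a description, because DMSO counts enter both the class and the fold change, which by itself tilts low classes up and high classes down. Classes were therefore also taken from standard culture, whose libraries the contrast does not use. Standard culture was a separate experiment on the same cells without Tg, with the first plasmid batch and 9 rather than 13 cycles of the first PCR, so its levels are not on one scale with those in DMSO and only sort the sequences here. By these, 84 sequences had a ratio of 4 and over, and 60 rose (71.4%) and 0 fell. Of 33 between 2 and 4, 20 rose and 0 fell, and of 92 between 1 and 2, 42 rose and 13 fell. Falls outnumbered rises in the class of 0.5 to 1 (80 against 37 of 250) and in that of -0.5 to 0.5 (466 against 115 of 12943). In the class of 1 to 2 the balance was thus opposite to that by DMSO classes, and at 4 and over it was the same. The class of 1 to 2 held 218 sequences by DMSO and 92 by standard culture. Classes of the same numbers are therefore not the same sequences or levels. Scaled by total counts only, with the DMSO classes unchanged, 37 of the 68 sequences at 4 and over still rose and 0 fell, but 66 rather than 68 had a positive log2 fold change. The class of 2 to 4 then had 20 rises and 18 falls, and that of -0.5 to 0.5 had 49 rises and 504 falls.

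The strongest class weighs heavily in the RNA. Its 68 sequences took 34.2, 31.4, 33.5, 35.7 and 34.5% of the counts of the 5 DMSO libraries. In the 5 Tg libraries they took 37.0, 37.4, 38.9, 40.4 and 37.9%. All Tg libraries lay above all DMSO libraries. The 218 sequences between 1 and 2 took 2.36 to 2.91% in DMSO and 1.70 to 1.93% in Tg, which do not overlap either. The DMSO libraries did not contribute equally to the falls. In the class of 1 to 2 the median ratios of the DMSO libraries were 1.18, 1.41, 1.19, 1.27 and 1.34, highest in library 2, against 0.96, 0.81, 0.72, 0.84 and 0.88 in Tg. Without DMSO library 2, 422 sequences fell and 233 rose.

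Called sequences often crossed a level. Of the 256 falls that started between 0.5 and 1, 229 ended under 0.5, and of the 146 that started between 1 and 2, 129 ended under 1 (29 of them under 0.5). Of the 18 falls that started between 2 and 4, 17 ended between 1 and 2. In the other direction, 58 of the 112 rises that started under 0.5 ended above it, and 13 of the 29 that started between 2 and 4 ended above 4. By the separate test of RNA against plasmid at an FDR of 1%, 554 of the 559 sequences that fell were active in DMSO and 348 were in Tg. The 274 that rose held 215 active sequences in DMSO and 252 in Tg. Over all tested sequences 2657 (19.8%) were active in DMSO and 1722 (12.8%) in Tg, and by total counts only 428 and 266 were.

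The sequence with the largest change of each class and direction, among those with 100 or more plasmid counts and libraries that did not overlap, shows the range. In the class of -0.5 to 0.5, the reference allele of rs7124060 had ratios of -0.03, -0.10, 0.00, -0.09 and -0.10 in DMSO and 1.42, 1.05, 0.82, 1.02 and 1.26 in Tg. A sequence at the level of its plasmid in all DMSO libraries was thus raised in all Tg libraries, 2.30-fold (log2 fold change 1.20, SE 0.0752, adjusted p = 5.67e-14). In the same class the reference allele of rs2070874 had 0.24, 0.30, 0.45, 0.41 and 0.24 in DMSO and -0.12, -0.22, -0.32, -0.31 and -0.39 in Tg (log2 fold change -0.60, SE 0.153, adjusted p = 0.00445). This call is near the threshold, and the adjusted p was 0.0121, 0.0208, 0.0181 and 0.0111 without DMSO library 2, 3 or 4 or Tg library 5, and 0.0149 in sequencing run 2 alone. The alternate allele of rs2070874, with a mean plasmid count of 173, had a log2 fold change of 0.15 (adjusted p = 0.858). The difference between its alleles did not pass the limma test described below (0.74, limma adjusted p = 0.131). In the class of 0.5 to 1, the alternate allele of rs175874 had 0.84, 0.86, 0.61, 0.39 and 0.57 in DMSO and 2.64, 2.29, 2.03, 2.30 and 2.37 in Tg. This was the largest rise among the called sequences, 3.21-fold (log2 fold change 1.68, adjusted p = 5.11e-06). The largest fall there was that of a sequence with the alternate allele of rs330247 and the other allele of a neighbouring SNP, with ratios of 0.74, 1.35, 0.57, 0.90 and 1.30 in DMSO and -0.58, -0.19, 0.09, -0.15 and -0.67 in Tg (log2 fold change -1.28). Among sequences of the standard background it was the C allele of rs175969 (chromosome 1, position 29198558), from 0.98 ± 0.10 to 0.22 ± 0.15 (SD, n = 5 each).

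In the class of 1 to 2, the C allele of rs17236779 had ratios of 1.77, 2.35, 1.80, 1.84 and 2.07 in DMSO and 0.71, 0.59, 0.45, 0.51 and 0.67 in Tg. The SNP lies in an intron of CDH18, a cadherin of cell adhesion (chromosome 5, position 20560208), and the fall was 2.62-fold (log2 fold change -1.39, adjusted p = 6.19e-08). The largest rise there was smaller, for the T allele of rs275856 (chromosome 18, position 21839152) in the locus of OSBPL1A, an oxysterol-binding protein, from 1.13 ± 0.07 to 1.58 ± 0.10 (SD, n = 5 each). In the class of 2 to 4, the T allele of rs17164589 had 2.36, 2.95, 2.43, 2.63 and 2.68 in DMSO and 1.65, 1.45, 1.26, 1.42 and 1.34 in Tg, 2.28-fold lower (adjusted p = 6.05e-07). This SNP lies upstream of MAEA, a subunit of a ubiquitin ligase (chromosome 4, position 1283608). In the same class the A allele of rs12905951 (chromosome 15, position 77649431) had 3.42, 3.43, 3.51, 3.67 and 3.52 in DMSO and 4.01, 4.09, 4.11, 4.29 and 4.20 in Tg, 1.55-fold higher (adjusted p = 7.77e-14). Starting levels less than 1 apart on the log2 scale thus went opposite ways. Among the strongest sequences, the A allele of rs6687939 had 4.47, 4.36, 4.48, 4.50 and 4.50 in DMSO and 4.98, 5.01, 5.04, 5.05 and 5.05 in Tg (log2 fold change 0.57, SE 0.0584, adjusted p = 7.65e-12). It lies between ATP8B2, a phospholipid flippase, and IL6R, the interleukin-6 receptor (chromosome 1, position 154334176).

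Both alleles of a SNP, each with its own barcodes and row in the fit, were tested for 6501 SNPs, and no SNP had calls in opposite directions. Both rose for 85 SNPs, both fell for 175, and 1 rose while the other fell for 0. Exactly 1 allele was called for 288, of which 99 rose and 189 fell, and 5953 had no call. The count of opposite calls was also 0 under DESeq2, limma-voom and every other alternative run. At an unadjusted p under 0.05 for both alleles in edgeR, 605 SNPs had the same sign and 7 opposite signs. Among the 548 SNPs with a call, the fold changes of both alleles had the same sign for 525 (95.8%), against 4100 of all 6501 (63.1%). Across the 6501 SNPs, which are no independent replicates, Pearson's r between the log2 fold changes of the alleles was 0.35, and all alleles share the same 10 RNA libraries. In the 85 pairs that rose together the median absolute difference between the alleles was 0.03 on the log2 scale, and in the 175 that fell together it was 0.07. These pairs were chosen by their calls, so the values describe them and are no test.

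Shared calls and matching signs made up larger shares of the pairs with a ratio of 1 and over than of those under it. Above 1, the share of shared calls did not rise steadily with activity. Pairs were classed by the DMSO ratio of the more active allele, and DMSO counts also enter the fold change. Single sequences of a class lean to 1 side as well. The log2 fold change was positive for 68 of 68 at 4 and over and 39 of 65 from 2 to 4. It was positive for 50 of 218 from 1 to 2, 152 of 652 from 0.5 to 1 and 6637 of 12194 from -0.5 to 0.5. Matching signs are thus partly set by the class and are no test of the pairs. In the 35 pairs at 4 and over, the signs matched in 34, with both alleles risen in 21, 1 in 5 and neither called in 9. In the 36 pairs of 2 to 4 they matched in 33, with 12 risen and 11 fallen together, 3 with 1 rise and 0 with a single fall. In the 127 of 1 to 2 they matched in 117, with 13 risen and 67 fallen together, and 8 and 16 with a single rise or fall. In the 396 of 0.5 to 1 they matched in 349, with 17 and 84 together and 21 and 89 single. In the 5878 of -0.5 to 0.5 single calls outnumbered shared ones, 62 against 22 for rises and 84 against 13 for falls, and the signs matched in 3553. The median absolute difference between alleles was 0.03 at 4 and over, 0.06 from 2 to 4, 0.09 from 1 to 2, 0.10 from 0.5 to 1 and 0.09 from -0.5 to 0.5, so it did not fall steadily with activity.

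The 8 pairs with the largest shared rise, by the smaller of both fold changes, started low. They are rs175874, rs7124060, rs2073721, rs62278697, rs2832265, rs10508931, rs111530243 and rs3111008, taken from 62 pairs that both rose with 100 or more plasmid counts and no overlap of libraries. Their 16 sequences had mean DMSO ratios of -0.06 to 0.80. DMSO counts enter the fold change, so this ranking by itself favours low DMSO readings, and the levels are a description. At rs175874 the reference allele had 0.86, 1.08, 0.73, 0.62 and 0.71 in DMSO and 2.61, 2.25, 1.93, 2.37 and 2.46 in Tg (log2 fold change 1.54, SE 0.132), beside 1.68 for the alternate allele given above. At rs7124060 the alternate allele had 0.19, 0.24, 0.18, 0.06 and 0.05 in DMSO and 1.51, 1.09, 0.94, 1.15 and 1.29 in Tg (log2 fold change 1.07, SE 0.0739), beside 1.20 for the reference. Tg library 1 was the highest and library 3 the lowest of both alleles at both SNPs. At rs2073721 (chromosome 6, position 31129616), in the locus of the pluripotency factor POU5F1, the A allele went from 0.27 ± 0.09 to 1.08 ± 0.24 and the G allele from 0.29 ± 0.11 to 1.12 ± 0.18 (SD, n = 5 each). At rs2832265 (chromosome 21, position 30590286), in an intron of the non-coding RNA gene LINC00189, the A allele went from 0.52 ± 0.11 to 1.37 ± 0.20 and the G allele from 0.70 ± 0.09 to 1.48 ± 0.21 (SD, n = 5 each). The other 4 pairs had log2 fold changes of 0.69 to 0.95.

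By a ranking that likewise favours high DMSO readings, the 8 pairs with the largest shared fall started higher. They are rs17164589, rs643807, rs7320023, rs1990352, rs2871741, rs10842991, rs2301707 and rs2356215, from 144 such pairs, and their 16 sequences had mean DMSO ratios of 1.01 to 2.82 and log2 fold changes of -1.19 to -0.87. At rs17164589 the G allele had 2.49, 2.96, 2.48, 2.63 and 2.80 in DMSO and 1.77, 1.40, 1.24, 1.44 and 1.60 in Tg, close to the T allele given above, with log2 fold changes of -1.18 and -1.19. At rs7320023 the alternate allele had 1.13, 1.51, 1.31, 1.39 and 1.47 in DMSO and 0.16, 0.14, 0.20, 0.22 and 0.15 in Tg (adjusted p = 6.54e-21), and the reference allele went from 1.21 ± 0.17 to 0.22 ± 0.21 (SD, n = 5 each). Neither allele of rs7320023 was active in Tg. At rs10842991 (chromosome 12, position 27962103) the C allele had 1.36, 1.58, 1.10, 1.28 and 1.51 in DMSO and 0.43, 0.16, 0.04, 0.14 and 0.26 in Tg. The T allele had 1.01, 1.22, 0.84, 0.88 and 1.12 in DMSO and 0.24, -0.01, -0.03, 0.09 and 0.04 in Tg. Both fell to near the plasmid level, the C allele by 1.16 and the T allele by 0.95 on the log2 scale, and every Tg value lay under the lowest DMSO value. The C allele was still active in Tg and the T allele was not. Their difference in response passed the limma test described below (0.21, limma adjusted p = 0.0819). At rs2356215 (chromosome 10, position 17073900), in an intron of CUBN, an endocytic receptor for vitamin B12 with intrinsic factor, the T allele fell by 0.87 and the C allele by 0.89 on the log2 scale. The other 4 pairs had log2 fold changes of -1.09 to -0.87. DMSO library 2 held the highest DMSO ratio for all 16 sequences of the 8 pairs.

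Where a single allele was called, the other mostly leaned the same way with a smaller change. In the 99 SNPs with 1 rise, the called allele had a median log2 fold change of 0.29 and its partner of 0.15. The partner's sign was the same in 91, and its unadjusted p was under 0.05 in the same direction in 56. In the 189 SNPs with 1 fall, the medians were -0.32 and -0.16, the sign was the same in 174, and the unadjusted p was under 0.05 in 113. The called allele was the more active one in DMSO in 154 of the 189, with median ratios of 0.53 and 0.35, but in 44 of the 99 rises. DMSO counts enter both the ratio and the fold change, which by itself tilts the allele that reads higher in DMSO towards a fall. Selection by the call also favours a larger change in the called allele, so these values are a description and no test. Coverage was alike, with median plasmid counts of 2695 and 2656 in the falls and 2836 and 2765 in the rises. A call for 1 allele and none for the other does not show that they differ.

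The difference itself was tested with limma, as the change between DMSO and Tg of the alternate minus reference log2 ratio, for 1670 SNPs with an allele active in either condition. It passed at an FDR of 10% for 64 (3.83%). Of the SNPs with 1 allele called, 12 of 79 tested passed where it rose and 29 of 184 where it fell, and of the SNPs with both called 1 of 85 and 10 of 175 passed. Another 12 had no called allele. The differences that passed had absolute sizes of 0.19 to 0.91 with a median of 0.33, and the alternate allele was the more positive one in 27 and the reference allele in 37. The count depended strongly on the setting. It was 9 when all pairs were tested, 10 with libraries of the same number blocked and 42 in sequencing run 2 alone. The study calls its replicates paired, but library numbers were not taken as pairs here. Without DMSO library 1, 2, 3, 4 or 5 it was 36, 18, 30, 27 or 20, and without Tg library 3 or 4 it was 41 or 40.

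The 5 SNPs with 1 called allele and the smallest p of this test show both kinds. At rs11075992, in an intron of FTO, an RNA demethylase gene at an obesity locus (chromosome 16, position 53820066), the C allele had -0.22, -0.10, -0.02, -0.14 and -0.14 in DMSO and 0.49, 0.48, 0.34, 0.35 and 0.51 in Tg. The T allele had -0.15, -0.18, -0.07, -0.14 and -0.18 in DMSO and -0.24, -0.10, -0.16, -0.10 and -0.25 in Tg. Both alleles lay at or below the plasmid level in DMSO, and the C allele alone separated in Tg (difference 0.59, SE 0.0707, limma adjusted p = 0.0017). At rs72775940 (chromosome 10, position 11924217) the T allele had 0.24, 0.21, 0.11, 0.24 and 0.18 in DMSO and 1.17, 0.80, 0.61, 0.74 and 0.94 in Tg, while the C allele went from 0.28 ± 0.04 to 0.34 ± 0.11 (SD, n = 5 each, difference -0.59, adjusted p = 0.00887). At rs9810370 the reference allele had 0.99, 1.20, 0.91, 0.92 and 1.01 in DMSO and 0.43, 0.21, 0.31, 0.41 and 0.41 in Tg, and the alternate allele went from 0.21 ± 0.08 to 0.10 ± 0.14 (SD, n = 5 each, difference 0.54, adjusted p = 0.0017). At rs12125591 (chromosome 1, position 235794173) the A allele fell from 0.63 ± 0.14 to 0.06 ± 0.10, with the T allele at 0.34 ± 0.08 and 0.18 ± 0.07 (SD, n = 5 each, difference -0.41, adjusted p = 0.00614). At rs527313 the alternate allele fell from 1.61 ± 0.16 to 0.95 ± 0.08, with the reference allele at 0.57 ± 0.09 and 0.37 ± 0.09 (SD, n = 5 each, difference -0.47, adjusted p = 0.00887). In the 3 falls the allele that fell was the more active one in DMSO, but DMSO counts enter both the level and the fall. By total counts only, the other alleles of rs12125591 and rs527313 passed the edgeR test too, also lower in Tg (adjusted p = 0.00722 and 0.00109). Both alleles were called at rs17236779, and the C allele fell further than the T allele, by 1.39 against 0.83 on the log2 scale (difference 0.55, SE 0.0670, adjusted p = 0.0017).

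The SNPs whose probes are printed above were strongly active with small changes in Tg, or inactive. At rs17748864, in the locus of PEX5L, which encodes a regulator of ion channels (chromosome 3, position 179649511), the T allele had 3.18, 3.00, 3.13, 3.27 and 3.13 in DMSO and 3.33, 3.22, 3.34, 3.30 and 3.34 in Tg. These overlap, and the log2 fold change of 0.17 did not pass the edgeR test (adjusted p = 0.0376), though DESeq2 called it (adjusted p = 0.00725). The C allele had -0.43, -0.28, -0.12, -0.06 and -0.28 in DMSO and -0.21, -0.21, -0.23, -0.19 and -0.06 in Tg, at or below the plasmid level throughout. At rs4630391, in the locus of the ubiquitin ligase gene RNF6 (chromosome 13, position 26777824), the C allele had 4.85, 4.76, 4.98, 5.08 and 4.97 in DMSO and 4.99, 5.05, 5.15, 5.37 and 5.15 in Tg (log2 fold change 0.22, adjusted p = 0.0363). The T allele had 4.37, 4.28, 4.47, 4.60 and 4.47 in DMSO and 4.55, 4.57, 4.69, 4.92 and 4.72 in Tg (log2 fold change 0.26, adjusted p = 0.00843). Both overlap between groups, and the T allele did not pass without DMSO library 1, 2, 3 or 5 or Tg library 3, 4 or 5 (adjusted p = 0.0184 to 0.0685), nor by total counts only (adjusted p = 0.0436). With libraries of the same number blocked, edgeR also called the C allele (adjusted p = 9.67e-06), though the numbers were not taken as pairs here. At rs113350503, in the locus of LARP6, an RNA-binding protein (chromosome 15, position 71111437), the A allele had 3.62, 3.53, 3.58, 3.72 and 3.73 in DMSO and 3.87, 3.77, 3.91, 4.03 and 3.84 in Tg. The G allele had 3.88, 3.69, 3.87, 3.95 and 3.96 in DMSO and 3.97, 4.01, 4.06, 4.24 and 4.26 in Tg. Both rose without overlap, the A allele by 0.26 and the G allele by 0.24 on the log2 scale (adjusted p = 0.00034 and 0.00199), but neither passed by total counts only (adjusted p = 0.0359 and 0.0743), and the G allele did not pass without DMSO library 2 or Tg library 4 or 5 (adjusted p = 0.0117, 0.0167 and 0.0236). The nearby rs11630895 (chromosome 15, position 71113738) showed -0.15 for the G allele and -0.05 for the A allele on the log2 fold change scale, neither past the test (adjusted p = 0.0776 and 0.763), though the G allele passed by total counts only (adjusted p = 0.00164).

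Neighbouring sequences and other backgrounds of a SNP could also be set side by side. rs947735 and rs947734 lie 43 bases apart (chromosome 6, positions 137295908 and 137295951), so their tested sequences overlap. Their log2 fold changes were 0.29 and 0.30 for the C and G alleles of rs947735 and 0.19 and 0.30 for the T and C alleles of rs947734. All but the T allele of rs947734 (adjusted p = 0.0354) passed. The C alleles did not pass by total counts only (adjusted p = 0.0373 for rs947735 and 0.0389 for rs947734), and that of rs947734 not without Tg library 4 (adjusted p = 0.0104). DESeq2 called the T allele of rs947734 as well (adjusted p = 0.00503). At rs12189774, in the locus of the growth factor VEGFA (chromosome 6, position 43816126), the A allele fell, with a log2 fold change of -0.23 (adjusted p = 0.00117), but not in sequencing run 2 alone (adjusted p = 0.0173). The G allele, with -0.20 (adjusted p = 0.0138), passed without DMSO library 3 (adjusted p = 0.00358), by total counts only (adjusted p = 0.0003) and by DESeq2 (adjusted p = 0.00314). Among 3298 SNPs whose position was at hand, 282 adjacent pairs lay under 200 bases apart. Both SNPs had a rise in 6 of these and both a fall in 4, and 0 pairs went opposite ways. In the 32 with a call for 1 SNP the mean fold changes of the SNPs had the same sign in 22. Of 366 sequences in which a neighbouring SNP carried its other allele, 3 rose and 11 fell together with the standard sequence, 0 went opposite ways and 14 had a single call, 12 of these with the same sign. Overlapping sequences share most of their bases and are not independent members.

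Lists that the rule did not use divided the sequences of one level. The T2D list holds 220 SNPs associated with type 2 diabetes and the caQTL list 390 SNPs that go with chromatin accessibility in islets. The study chose both for allelic effects in these libraries, so neither is independent evidence of a direction. Of the T2D sequences with a DMSO ratio of 1 to 2, 18 of 33 rose and 10 fell, and of those of 0.5 to 1, 20 of 63 rose and 10 fell. Of the caQTL sequences, 1 of 52 rose and 43 fell in the first class, and 3 of 148 rose and 76 fell in the second. On neither list, 12 of 123 rose and 85 fell in the first class, and 31 of 425 rose and 164 fell in the second. The T2D list held 58 of the 68 sequences at 4 and over, of which 41 rose, and the caQTL list held 0. Over all levels the medians were 0.10 for 440 T2D sequences and -0.09 for 780 caQTL sequences, against 0.01 for all 13045 sequences of the standard background.

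Islet chromatin maps were at hand for 1999 T2D-associated SNPs of a shortened table. In islet ATAC-seq peaks, which mark open chromatin, all 6 sequences with a DMSO ratio of 1 to 2 fell and 0 rose, and outside peaks 2 of 27 fell and 19 rose. Both sequences between 2 and 4 in a peak fell, and of 32 outside, 18 rose and 0 fell. At 4 and over, 3 of 4 in peaks and 35 of 49 outside rose. Over all levels, 17 of 297 sequences in ATAC-seq peaks fell (5.72%) and 7 rose, against 27 (0.732%) and 126 of 3691 outside. In peaks of β cell transcription factors, 10 of 100 sequences fell and 3 rose for PDX1, 7 and 2 of 140 for FOXA2 and 6 and 2 of 70 for NKX6.1. H3K27ac, a mark of active enhancers and promoters, had 7 falls and 5 rises of 130. Over all sequences of the standard background 4.13% fell and 2.06% rose. Sequences in peaks of ATAC-seq (5.72% and 2.36%) and FOXA2 (5.00% and 1.43%) lay near these shares. For H3K27ac the share of falls was near (5.39%) and that of rises larger (3.85%). PDX1 (10.0% and 3.00%) and NKX6.1 (8.57% and 2.86%) lay above both. All sequences of the standard background include SNPs that the study chose inside ATAC-seq peaks, so they are not a like set for T2D-associated SNPs. Those outside ATAC-seq peaks had a smaller share of falls (0.732%) and a larger share of rises (3.41%). Outside the peaks of the same table, falls were 0.962% for FOXA2 and 0.959% for H3K27ac. These peaks overlap one another, and both alleles of a SNP count in each.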

How the data were processed

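MPRA sequences were compared between 5 RNA libraries from Tg-treated and 5 from DMSO-treated MIN6 cells, with 5 plasmid libraries of the same batch. The deposited values are counts, which the authors made by summing barcode reads per sequence and library after discarding barcodes of more than 1 sequence, before normalization. The submitters' processing notes name DESeq2. The program that counted barcodes: not given in the sources used here. Counts of 2 sequencing runs were summed by library name, and these runs are not replicates. Libraries are from 5 transfection days, as the study's methods state.

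Tg was compared with DMSO with edgeR 4.0.16 (R 4.3.3, quasi-likelihood, robust, TMM, two-sided, Benjamini-Hochberg FDR 1% over 13413 sequences with a mean plasmid count of 10 or more), and RNA with plasmid likewise. Ratios are log2 RNA over mean plasmid, with a pseudocount of 1 on scaled counts, and row A of a name is the reference allele. The change of the allelic difference used limma 3.58.1 at an FDR of 10%. An adjusted p comes from edgeR unless limma or DESeq2 (1.42.0) is named, and in the paragraphs on differences between alleles from limma. Standard culture ratios pool all columns of that table. Python 3.11.15 joined the tables. Simulated counts with known changes were used to test the edgeR fit of Tg against DMSO. The limma fit was tested on simulated normally distributed values, and the other fits were not simulated. Counting error apart, precision is limited by 5 libraries a group.

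Members, lists and the rule for named SNPs were chosen with earlier results of these data known. The rule takes the 8 largest shared rises and 8 largest shared falls with 100 or more plasmid counts and no overlap of libraries, the largest change of each level and direction (over both backgrounds for 1 fall), the 5 single-allele calls with the smallest p of the difference, and SNPs the study names for Tg, of which 1 is not analysed here. Positions (hg19), loci, annotations, windows and lists come from the study's supplementary tables, several of them shortened, so no enrichment was tested, and 1 peak list is not reported here. SNPs named without a position had none in the parts at hand. The genome at hand is mouse and was not used. The number of unread per-sample columns was 0.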

Additional observations from a re-analysis of the deposited data

Results flagged for a closer look

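For the 68 named sequences, each group of 5 libraries was checked for 1 library far from the others, by the gap to the nearest library over the whole range. It exceeded Dixon's 95% value of 0.71 in 8 of 136 groups, and chance gives about 1 in 20. In DMSO, the A allele of rs6687939 had a ratio of 4.36 in library 2 against 4.47 to 4.50 in the others, and the reference allele of rs527313 had 0.41 in library 1 against 0.58 to 0.64. The A allele of rs12189774 had 0.27 in DMSO library 3 against 0.42 to 0.46. DMSO library 5 was low for both alleles of rs947734, at 0.12 against 0.28 to 0.34 for T and 0.32 against 0.40 to 0.43 for C. In Tg, the C allele of rs17748864 had -0.06 in library 5 against -0.23 to -0.19. The C allele of rs947735 had 0.85 in Tg library 4 against 0.61 to 0.65, and the G allele 0.97 in Tg library 1 against 0.79 to 0.83.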

How the results depend on the processing

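Scaling by total counts only was the alternative that moved most counts. It gave 145 sequences higher and 1016 lower, 53 SNPs with both alleles higher and 315 with both lower, and 428 active sequences in DMSO and 266 in Tg. All 559 falls and 145 of the 274 rises were shared with TMM. With classes and calls both from total counts, 76 sequences of 0.5 to 1 and 30 of 1 to 2 fell, and with standard culture classes 80 and 13. The difference between alleles passed for 9 SNPs when all pairs were tested, 42 in run 2 only, and 18 to 57 without 1 library. The cause was not tested. Other scalings, DESeq2, limma-voom, filters, runs and left-out libraries gave 224 to 385 rises and 422 to 674 falls. No sequence was called in the opposite direction, and each count of shared or single calls stayed within 1.5 times. Of 1360 values of the named sequences, 1329 kept their side of the threshold, 22 lost and 9 gained the call, and none turned a call.

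The study calls its replicates paired. Deviations of DMSO and Tg libraries of the same number correlated at -0.039 to 0.005, and no library correlated best with its own number, so the numbers were not taken as pairs. A replicate block gave 293 rises, 573 falls, 180 SNPs with both alleles lower, 278 with 1 call and 0 with opposite calls. The block left 10 SNPs whose alleles differ in response, called the C allele of rs4630391 (adjusted p = 9.67e-06) and changed no other call of a named sequence. Precision was limited for sequences under -0.5, which had few plasmid counts.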

Other observations

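Genomic annotation was at hand for part of the SNPs, from shortened tables, and its groups were formed after values had been seen. Of 72 sequences upstream of a gene or in a 5′ UTR, 17 fell (23.6%) and 1 rose, with a median log2 fold change of -0.11. All 8 of them with a DMSO ratio of 1 to 2 fell, as did both between 2 and 4. Of 915 intronic sequences 31 fell and 27 rose, and of 735 intergenic ones 35 fell and 26 rose. These shares of falls (3.39% and 4.76%) were near that of all sequences of the standard background (4.13%). The shares of rises (2.95% and 3.54%) were above it (2.06%). At 1 to 2, 5 of 16 intronic sequences fell and 8 rose. At 4 and over, 6 of 10 intronic and 6 of 9 intergenic sequences rose.

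Windows around 80 SNPs of the motif tables, with a median length of 27.5 bases, were compared for shared stretches of 10 or more bases on either strand. For 26 SNPs the window shared such a stretch with that of a SNP over 1000000 bases away or on another chromosome. Of their 52 sequences 13 rose and 5 fell, and of the 108 sequences of the other 54 SNPs 15 rose and 12 fell. Over all 13413 sequences 2.04% rose and 4.17% fell, and both groups lay above these shares. In DMSO their median ratios were 0.48 and 0.24. These SNPs are on the T2D or caQTL lists, the tables are cut short, and the windows are a small part of each tested sequence.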
